A study of Mus musculus with 31 samples.

Results

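Every treated library of the study was set against every water library: 18 hippocampal small RNA libraries from mice that had exercised or received corticosterone, against 13 from mice kept on water. Together they are all 31 libraries of the series, and genotype was a covariate, because both arms hold wild-type (WT) mice and mice without the serotonin transporter (labelled 5-HTT KO, here KO). The strain is given as C57Bl/6 J for all of them, the tissue is the right hippocampus, and treatment lasted 4 weeks. In the treated arm exercise was given to 5 WT and 5 KO mice, and corticosterone to 6 WT and 2 KO mice, and the water arm held 7 WT and 6 KO mice. Groups are named by genotype and intervention, as WT-water or KO-exercise. The sources used here do not state age, sex, the form of exercise or the dose and route of corticosterone. The labels give no further detail of the knockout allele, and they name water as the only control for both interventions. The comparison asks which microRNAs depart from the standard-housing state under either intervention.

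MicroRNAs are short RNAs cut from hairpin precursors and loaded into Argonaute proteins, where bases 2 to 8 from the 5′ end, the seed, pair with target mRNAs and lower their translation and stability. A hairpin can yield a mature strand from each arm, named 5p and 3p, and members of a family share a seed and so can share targets. In the hippocampus microRNAs take part in synaptic plasticity, neurogenesis and the response to stress hormones. MiR-132 and miR-212 are induced by neuronal activity through CREB, the let-7 family holds cells in a differentiated state, and miR-16 and miR-135 are reported to act on the serotonin system.

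The mature sequences below are those around which the results are arranged. They are from RefSeq (GRCm38.p6), printed 5′ to 3′ with the seed in capitals. RefSeq held a mature sequence for 457 of the 530 microRNAs tested. The first set holds microRNAs whose treated and water libraries separated most: miR-126b-5p lies opposite miR-126a-3p on the other strand of the same hairpin locus.
miR-126b-5p: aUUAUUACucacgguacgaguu
miR-126a-3p: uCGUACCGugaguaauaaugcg
miR-196b-5p: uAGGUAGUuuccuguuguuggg
let-7b-3p: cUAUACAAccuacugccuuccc
miR-150-3p: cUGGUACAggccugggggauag
miR-331-3p: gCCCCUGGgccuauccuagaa
miR-3059-5p: uUUCCUCUcugccccauagggu
miR-873a-5p: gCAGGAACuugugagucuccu

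The second set holds microRNAs that rose, each beside another member of its seed. MiR-301a-3p and miR-195a-5p were not called and are shown for comparison.
miR-130a-3p: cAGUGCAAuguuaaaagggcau
miR-130b-3p: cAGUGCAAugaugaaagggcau
miR-301a-3p: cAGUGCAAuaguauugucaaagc
miR-26a-5p: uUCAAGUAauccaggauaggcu
miR-26b-5p: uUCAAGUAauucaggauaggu
miR-146a-5p: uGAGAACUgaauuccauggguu
miR-146b-5p: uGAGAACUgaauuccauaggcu
miR-132-3p: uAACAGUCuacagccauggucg
miR-212-3p: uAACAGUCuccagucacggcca
let-7b-5p: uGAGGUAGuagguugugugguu
let-7c-5p: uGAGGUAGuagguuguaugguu
miR-16-5p: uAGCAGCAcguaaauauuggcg
miR-195a-5p: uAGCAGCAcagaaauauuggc

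The third set holds families that fell.
miR-99a-5p: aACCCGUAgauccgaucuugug
miR-100-5p: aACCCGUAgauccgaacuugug
miR-99b-5p: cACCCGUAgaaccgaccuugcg
miR-181a-5p: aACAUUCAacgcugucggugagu
miR-181b-5p: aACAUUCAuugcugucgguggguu
miR-181c-5p: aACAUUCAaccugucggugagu
miR-181d-5p: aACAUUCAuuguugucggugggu
miR-103-3p: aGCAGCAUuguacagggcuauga
miR-107-3p: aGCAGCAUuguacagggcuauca

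MiR-99a-5p and miR-100-5p differ at 1 of 22 bases, miR-103-3p and miR-107-3p at 1 of 23, and let-7b-5p and let-7c-5p at 1 of 22. Reads of such near-identical copies could be split between them by the counting, so the levels of single members are less certain than those of the family.

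Total counts assigned to microRNAs ranged from 1011285 to 4052174 per library. They were lower in the treated arm, with a median of 1795438.5 against 2399663 in water (difference of means -647226, p = 0.00914, two-sided permutation test with 100000 resamples). MiR-124-3p, the defining microRNA of neurons, lay at a median of 243500 counts per 1000000 (CPM) in treated and 245200 in water libraries, and neuron-enriched microRNAs together held 39.3% to 47.1% of treated and 40.4% to 47.8% of water counts. The transporter mRNA was not measured, so no check of the genotype labels was possible. KO-water 3, 4 and 6 stood apart from the other water libraries: on the first principal component they lay between 8.52 and 14.2, and the other 10 between -13.0 and -9.33. Treated libraries spanned -7.65 to 13.9 on it, so these 3 lay at the treated end. On the second principal component the 3 were at -12.0 to -10.2, below every treated library (-2.10 to 9.03). These 3 are the only KO-water libraries in the deposited table that pairs KO-water with WT-water. Values without them are therefore given beside the results that they move. Leaving out water libraries close to treated ones on the first component can itself add calls, so these values are no separate support. KO-exercise 4, by its labels an exercise library, stands among the knockout columns of the same table. Without it and those 3 libraries, the comparison below gave 316 calls in place of 325.

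**Figure D1:**
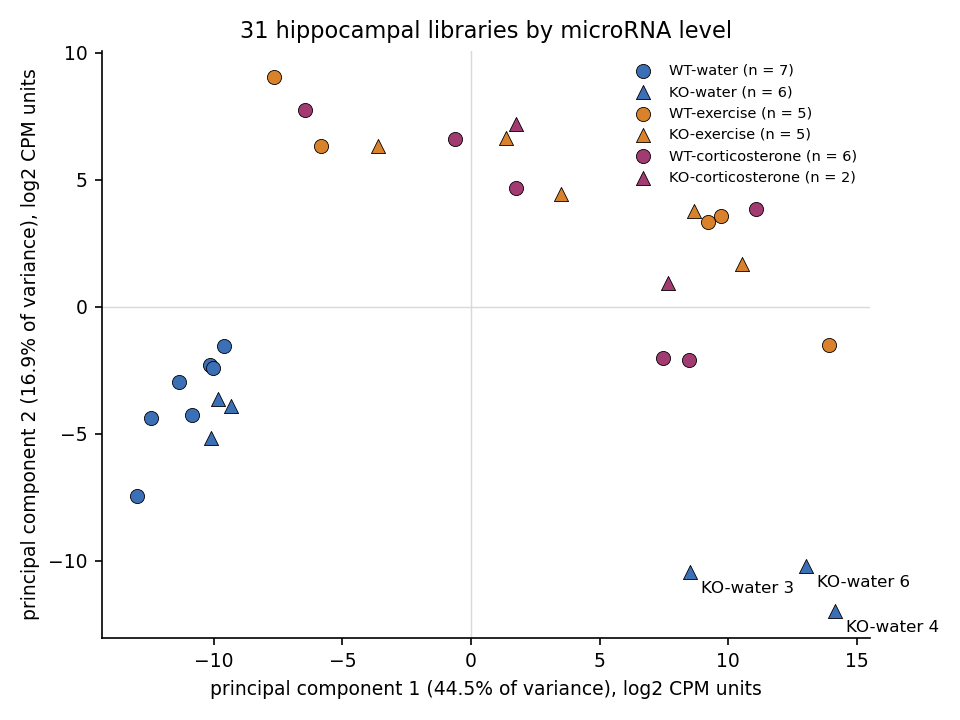
Scores of the 31 libraries on the first 2 principal components of log2 CPM, coloured by intervention, with circles for WT and triangles for KO. Component 1 holds 44.5% and component 2 16.9% of the variance, and KO-water 3, 4 and 6 (8.52 to 14.2 on component 1) lie away from the other 10 water libraries.

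Treatment went with changes in both directions over a large part of the measured microRNAs. Of 530 tested, 191 (36.0%) were called at an adjusted p below 0.05 by the edgeR quasi-likelihood test: 90 (17.0%) rose and 101 (19.1%) fell. The median log2 fold change over all 530 was 0.01. Without KO-water 3, 4 and 6 the test called 325 of 543 (59.9%), 167 higher (30.8%) and 158 lower (29.1%), and 183 of the 191 were called again in the same direction. Of the 191, 166 stayed called whichever library was left out, and 43 (24 rose, 19 fell) in all of 46 planned settings. With log2 total count as a covariate 175 were called, of which 150 were among the 191. Without KO-water 3, 4 and 6 the same covariate gave 249 calls, with 169 of the 191 among them. Depth moved with the arm. Of microRNAs described below, the depth covariate ended the calls of miR-182-5p, miR-183-5p, miR-29b-3p, miR-29c-3p, miR-338-3p, miR-101a-3p, miR-128-3p, miR-21a-5p and miR-30d-5p. It also ended those of miR-28a-5p, miR-199b-3p and miR-382-3p. In whole tissue, fewer cells of a type and less RNA per cell cannot be told apart.

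The clearest separation was in 3 microRNAs that were at or near 0 in water. MiR-126b-5p, from the strand opposite miR-126a at chr2:26591399-26591420 (minus strand, opposite an exon of Egfl7), had a lowest, median and highest level of 13.9, 57.6 and 153 CPM in treated libraries and of 0, 0 and 0.528 CPM in water libraries. It had 2187 counts over 18 of 18 treated libraries and 3 counts over 2 of 13 water libraries, a rate ratio of 713 (exact 95% interval 244 to 3460, counting error only). MiR-196b-5p, encoded beside the Hox genes at chr6:52230129-52230150 within an exon of Hoxa9, spanned 2.22 to 20.5 CPM in treated libraries, with a mean of 10.1 ± 4.97 (SD, n = 18). It had 349 counts in treated and 1 count in water libraries, a ratio of 341 (60.9 to 13500). MiR-122b-3p, which shares its number with the liver microRNA miR-122, lay at 17.8, 118 and 232 CPM in treated and at 0, 1.57 and 5.63 CPM in water libraries. Its ratio was 57.2 (45.0 to 74.0), and its position and strand relative to miR-122 were not examined.

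All 3 rose by the test (adjusted p 1.60e-15, 1.62e-14 and 1.48e-12), and no treated library overlapped a water library. They passed the filter that removes microRNAs of low count only through the treated libraries, where they are high. These adjusted p are therefore no separate support for the separation. In KO-water 3, 4 and 6 miR-126b-5p was at 0 to 0.528 CPM and miR-196b-5p at 0 in all 3. MiR-122b-3p was at 2.58 to 5.63 CPM in them, above the water median, and its ratio was 27.4 (17.9 to 44.3) against these 3 and 70.8 (53.0 to 96.9) against the other 10. The rise was present in every treated group, with mean miR-126b-5p of 68.5 ± 51.4 CPM in WT-exercise, 56.1 ± 33.4 in WT-corticosterone, 61.4 ± 15.6 in KO-exercise and 72.7 ± 49.5 in KO-corticosterone (SD). WT-exercise spanned 18.6 to 153 CPM, so the groups overlap each other widely.

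**Figure D2:**
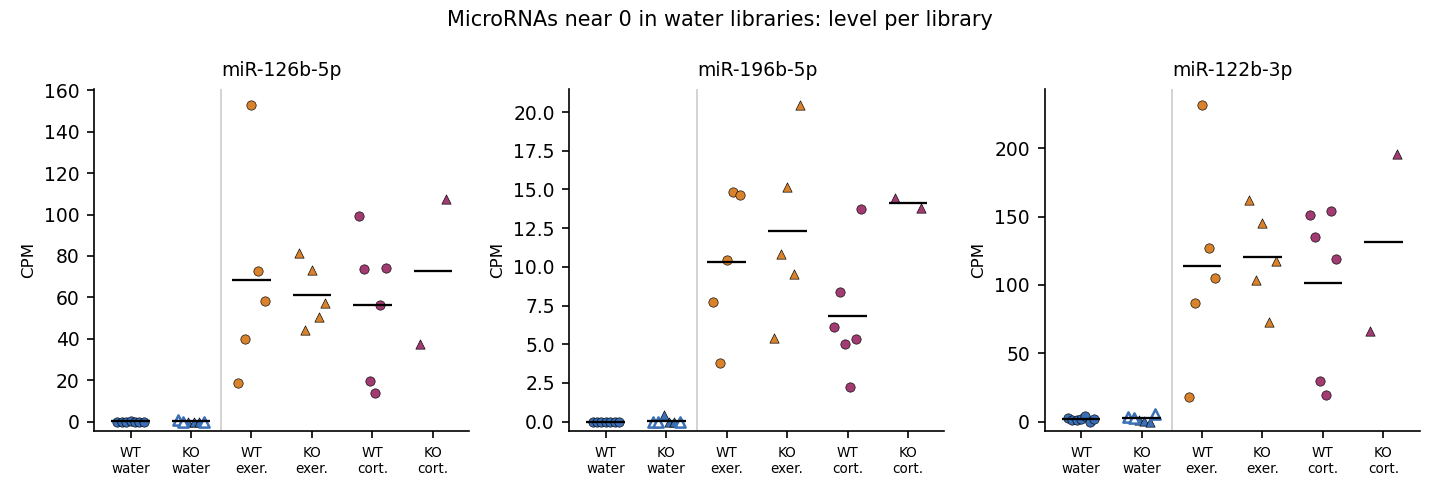
CPM per library (vertical axis, linear) of miR-126b-5p, miR-196b-5p and miR-122b-3p in the 6 groups, with a bar at each group mean; open triangles are KO-water 3, 4 and 6. All 13 water libraries lie at or below 0.528, 0.41 and 5.63 CPM, and all 18 treated libraries lie above them.

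The partner of miR-126b-5p on the other strand was not called. MiR-126a-3p, an endothelial microRNA, was at a median of 7065 CPM in treated and 5636 CPM in water libraries (log2 fold change 0.13 ± 0.17 (SE), adjusted p 0.578), and without KO-water 3, 4 and 6 at 0.49 (adjusted p 0.000515). MiR-126b-5p and miR-126a-3p hold a complementary run of 19 bases. The sources used here do not say if counting used strand, and counts of such partners cannot then be told apart with certainty. MiR-122-5p rose by a log2 fold change of 0.79 (adjusted p 0.00435). The miR-126b-5p count was 0.858% of the miR-126a-3p count in treated and 0.00137% in water libraries. Over the 22 other overlapping antisense pairs with 1000 or more counts, the median share of the rarer member was 0.00497% in treated and 0.00339% in water libraries, and in 20 of them it was at most 1% in both arms.

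Across all 530 tested, treated and water libraries did not overlap for 5 (0.943%): these 3, let-7b-3p and miR-150-3p. Let-7b-3p, the passenger strand of let-7b, lay at 230, 312 and 483 CPM (lowest, median, highest) in treated and at 112, 146 and 217 CPM in water libraries, a log2 fold change of 1.06 ± 0.12 (adjusted p 4.59e-08). MiR-150-3p, the minor arm of a lymphocyte microRNA, lay at 4.65, 13.8 and 19.99 CPM in treated and at 21.9, 33.2 and 59.1 CPM in water libraries, a log2 fold change of -1.32 ± 0.15 (adjusted p 4.59e-08). The highest treated library for miR-150-3p thus stayed below the lowest water library. Without KO-water 3, 4 and 6, 17 of 543 (3.13%) did not overlap, 13 higher (2.39%) and 4 lower (0.737%), among them miR-16-5p, miR-130a-3p, miR-194-5p and miR-873a-5p above and miR-181b-5p and miR-331-3p below the 10 water libraries.

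Among microRNAs above 1000 CPM, miR-130a-3p rose most clearly. This microRNA of vessel growth and blood cell differentiation lay at 1243, 1859 and 2430 CPM in treated and at 381, 719 and 1420 CPM in water libraries, a log2 fold change of 1.34 ± 0.13 (adjusted p 2.01e-09). The highest treated libraries were of both interventions, and 17 of 18 lay above the highest water library, KO-water 4. Without KO-water 3, 4 and 6 the value was 1.52.

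MiR-3059-5p, encoded in an intron of Mgat4c, lay at 31.2, 54.8 and 92.7 CPM in treated and at 5.12, 20.2 and 33.2 CPM in water libraries (1.68 ± 0.20). MiR-873a-5p, encoded in an intron of the neuronal gene Lingo2, lay at 542, 708 and 1076 CPM against 277, 384 and 560 CPM (0.90 ± 0.10). In each case 17 of 18 treated libraries lay above every water library. Further large rises were those of miR-378d (1.03 ± 0.19), miR-152-3p (1.13 ± 0.31), miR-194-5p (1.00 ± 0.24) and miR-16-5p (0.98 ± 0.21).

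KO-water 3, 4 and 6 bore on several of these. MiR-152-3p, encoded in an intron of Copz2, lay at 297 to 369 CPM in those 3 libraries, with a water median of 77.3 CPM and a treated median of 246 CPM. Its value without them was 1.77. MiR-194-5p, an epithelial microRNA, lay at 155 to 219 CPM in them, with a water median of 52.9 CPM, and its value without them was 1.54.

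MiR-182-5p and miR-183-5p, members of a cluster known from sensory cells, had high fitted changes (1.65 ± 0.52 and 1.15 ± 0.44) at low levels. MiR-182-5p spanned 1.04 to 98.5 CPM in treated and 0.282 to 28.4 CPM in water libraries, and its call was lost without KO-exercise 2 (adjusted p 0.0542) and with the depth covariate (1.16, adjusted p 0.102). Of the 31 fits without 1 library, 16 lost the call of miR-183-5p (highest adjusted p 0.0968). MiR-96-5p, the third microRNA of that cluster, was at -0.45 and was not called.

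**Figure D3:**
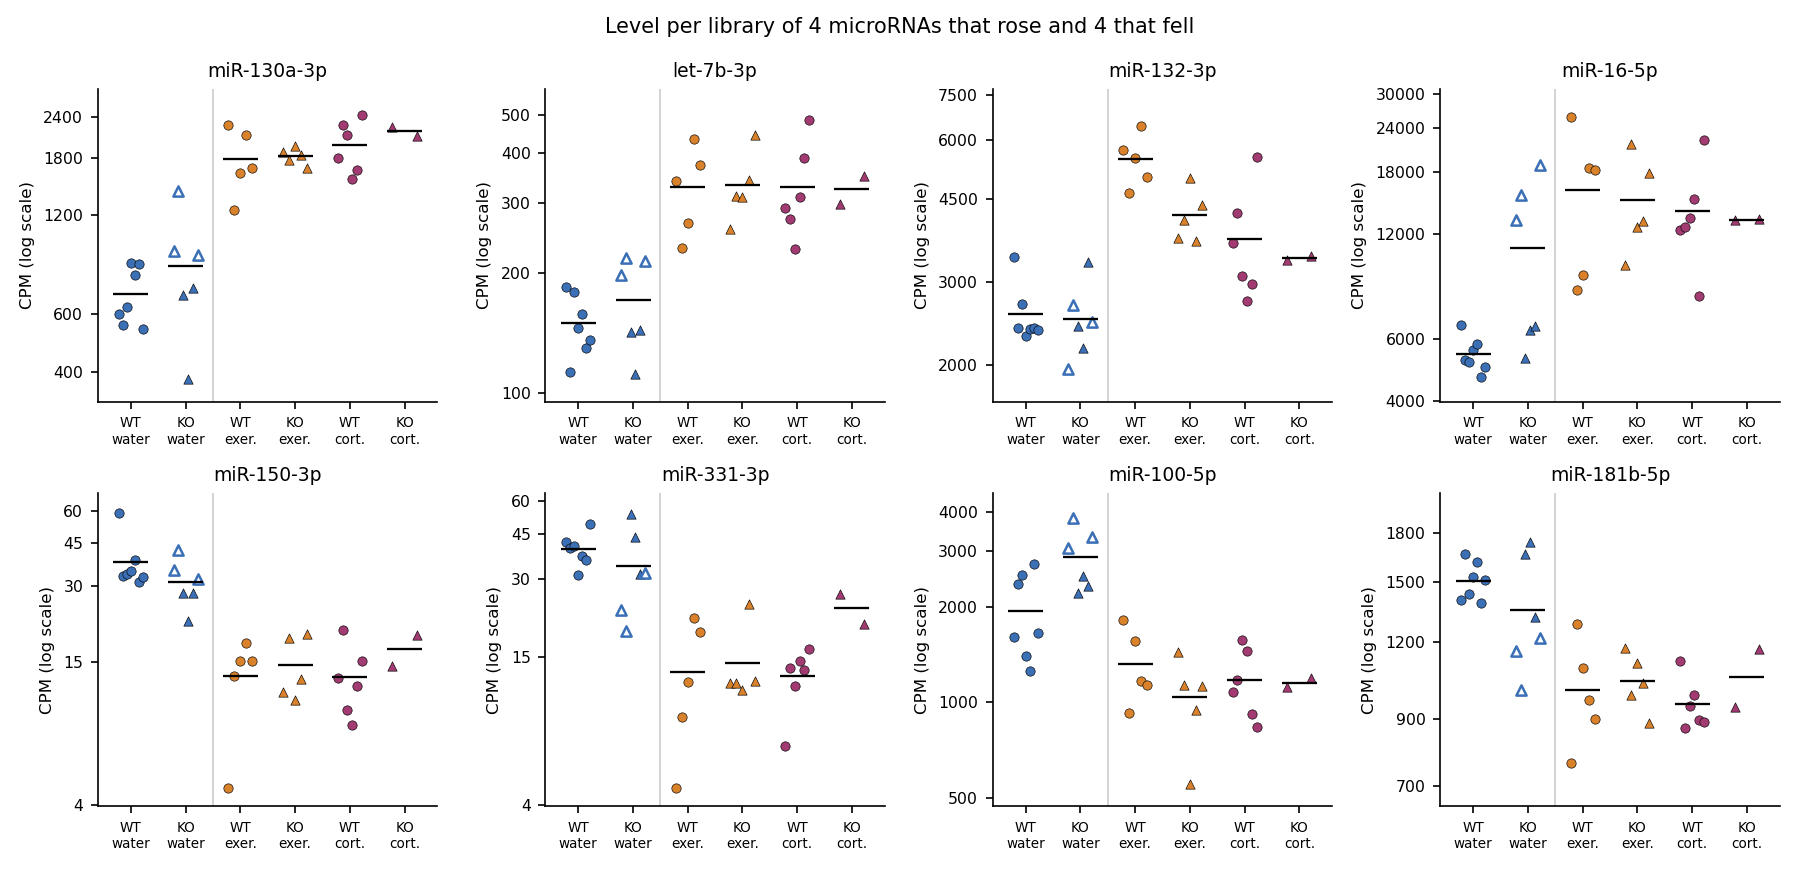
CPM per library (vertical axis, log scale) of miR-130a-3p, let-7b-3p, miR-132-3p and miR-16-5p, which rose, and of miR-150-3p, miR-331-3p, miR-100-5p and miR-181b-5p, which fell, in the 6 groups, with a bar at each group mean. Open triangles are KO-water 3, 4 and 6, which for miR-16-5p lie at 13100 to 18870 CPM beside a treated median of 13160 CPM.

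The falls were led by microRNAs of low level. MiR-3084-3p fell by 1.57 ± 0.28 on the log2 scale, from a water median of 23.1 CPM to a treated median of 7.09 CPM. The 3 separate KO-water libraries lay at 2.58 to 4.75 CPM, beside a treated range of 3.61 to 11.3 CPM. The lowest of them was thus below every treated library. MiR-501-5p fell by 1.50 ± 0.22, miR-2137 by 1.37 ± 0.26 and miR-490-3p, of smooth and cardiac muscle, by 1.02 ± 0.21. MiR-331-3p, encoded in the gene Vezt, lay at 4.65, 12.7 and 26.3 CPM in treated and at 18.9, 36.7 and 53.8 CPM in water libraries (-1.34 ± 0.18, adjusted p 7.26e-07). Of the 18 treated libraries 14 lay below every water library for miR-331-3p.

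Higher up, miR-99a-5p lay at 2511, 5312 and 10120 CPM in treated and at 3985, 13980 and 23230 CPM in water libraries (-1.08 ± 0.23), and let-7j (-1.06 ± 0.18), miR-339-5p (-1.08 ± 0.18) and miR-199b-5p (-1.23 ± 0.24) fell by similar amounts. The erythroid miR-451a, which marks red blood cells left in tissue, lay at 314, 489 and 1644 CPM in treated and at 471, 1192 and 2203 CPM in water libraries (-1.01 ± 0.21, adjusted p 0.000344). Other red blood cell microRNAs did not pass the test: miR-144-3p was at 0.07, miR-144-5p at 0.30 and miR-486a-5p at 0.09. Leaving out KO-water 3, 4 and 6, miR-144-5p (0.63, adjusted p 0.000364) and miR-486a-5p (0.50, adjusted p 0.0364) rose, the opposite direction to miR-451a (-1.22). The summed share of that list was 0.0424% to 0.178% of counts in treated and 0.0498% to 0.261% in water libraries, and its part in other results was not tested.

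The microRNAs in the next sentences are among the 43 called in all 46 planned settings, and were chosen for that after their values were seen. MiR-335-5p, from the imprinted gene Mest, lay at 986, 1349 and 1574 CPM in treated and at 640, 853 and 1111 CPM in water libraries (0.59 ± 0.08). MiR-324-3p (0.60 ± 0.10), miR-539-5p (0.51 ± 0.09), miR-346-5p (0.70 ± 0.15), miR-669a-3p (0.74 ± 0.13) and miR-467e-5p (0.85 ± 0.14) rose too, the last 2 from the large Sfmbt2 cluster. Among falls in that set, miR-7a-1-3p lay at 111, 153 and 312 CPM in treated and at 196.1, 332 and 406 CPM in water libraries (-0.93 ± 0.11), and miR-127-5p (-0.83 ± 0.18), miR-652-5p (-0.93 ± 0.15) and miR-93-3p (-0.93 ± 0.12) fell by like amounts. The treated and water ranges of miR-335-5p and miR-7a-1-3p overlapped, as did those of most called microRNAs.

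Among microRNAs with a RefSeq sequence, the called members of a seed mostly moved in the same direction; tested microRNAs without one are outside this tally. Of 45 such seeds with 2 or more tested members, 20 had 2 or more called: in 12 all called members rose, in 7 all fell, and in 1 (miR-500-3p and miR-501-3p) they went in opposite directions. Among risers, miR-130b-3p followed miR-130a-3p at 0.84 ± 0.26, and miR-301a-3p, which shares the seed, was at 0.29 (adjusted p 0.0509). Both miR-26 members rose by like amounts (miR-26a-5p 0.74 ± 0.13, miR-26b-5p 0.71 ± 0.11). Of these, miR-26b-5p lies in an intron of the phosphatase gene Ctdsp1. MiR-26a-5p has 2 genomic copies, and the copy examined lies in an intron of the phosphatase gene Ctdspl. MiR-146a-5p and miR-146b-5p, which restrain inflammatory signalling, rose by 0.65 ± 0.18 and 0.73 ± 0.11. Of the miR-30 seed, miR-30c-5p rose by 0.67 ± 0.08, from 7246 to 12840 CPM across water libraries to 12550 to 21110 CPM across treated ones, while miR-30a-5p was at 0.10 and was not called. The miR-30 family also holds miR-30b-5p and miR-30d-5p, which have no sequence in the table used and so are not in the tally: miR-30b-5p rose (0.38, adjusted p 0.00146) and miR-30d-5p fell (-0.35, adjusted p 0.0349). With log2 total count as a covariate miR-30d-5p was at -0.22 and was not called (adjusted p 0.27).

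Within the let-7 seed, 5 of 10 tested members rose and 0 fell, which are let-7c-5p (0.76 ± 0.12), let-7b-5p (0.67 ± 0.13), let-7k (0.48 ± 0.15), let-7a-5p (0.42 ± 0.10) and let-7e-5p (0.37 ± 0.09). Let-7c-5p, the most changed of them, lay at 22120, 29760 and 46340 CPM in treated and at 10570, 18310 and 29890 CPM in water libraries. Let-7g-5p and let-7i-5p had values below 0 (-0.22 and -0.18, not called), and without KO-water 3, 4 and 6 let-7g-5p was called (-0.28, adjusted p 0.0445). Among the 12 let-7 and miR-98 passenger strands 4 rose and 2 fell, so the strands of these hairpins did not move as 1 group.

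All 4 tested members of the miR-181 seed, which act in lymphocytes and neurons, fell: miR-181a-5p by 0.46 ± 0.08, miR-181b-5p by 0.52 ± 0.08, miR-181c-5p by 0.94 ± 0.22 and miR-181d-5p by 0.69 ± 0.14. MiR-181b-5p lay at 765, 975 and 1286 CPM in treated and at 1002, 1437 and 1743 CPM in water libraries, and 11 of 18 treated libraries lay below every water library. All 3 of the miR-99 and miR-100 seed, reported to act on mTOR and IGF1R, fell as well, miR-100-5p by 0.98 ± 0.15 from a water median of 2362 to a treated median of 1135 CPM. For miR-100-5p 13 of 18 treated libraries lay below every water library. MiR-103-3p and miR-107-3p fell by 0.53 ± 0.10 and 0.26 ± 0.08. Of these, miR-107-3p lies in an intron of the pantothenate kinase gene Pank1. MiR-103-3p has 2 genomic copies, and the copy examined lies in an intron of Pank2. The call of miR-107-3p was lost without KO-water 3, 4 and 6 (-0.15, adjusted p 0.0561) and without the filter on low counts (adjusted p 0.0936). Of the miR-29 seed miR-29b-3p fell by 0.54 ± 0.18 and miR-29c-3p by 0.89 ± 0.28, and miR-29a-3p was at -0.48 (adjusted p 0.109). With log2 total count as a covariate neither call held: miR-29b-3p was at -0.48 (adjusted p 0.0655) and miR-29c-3p at -0.78 (adjusted p 0.0547). For code letter G miR-29b-3p was at -0.29 and was not called.

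**Figure D4:**
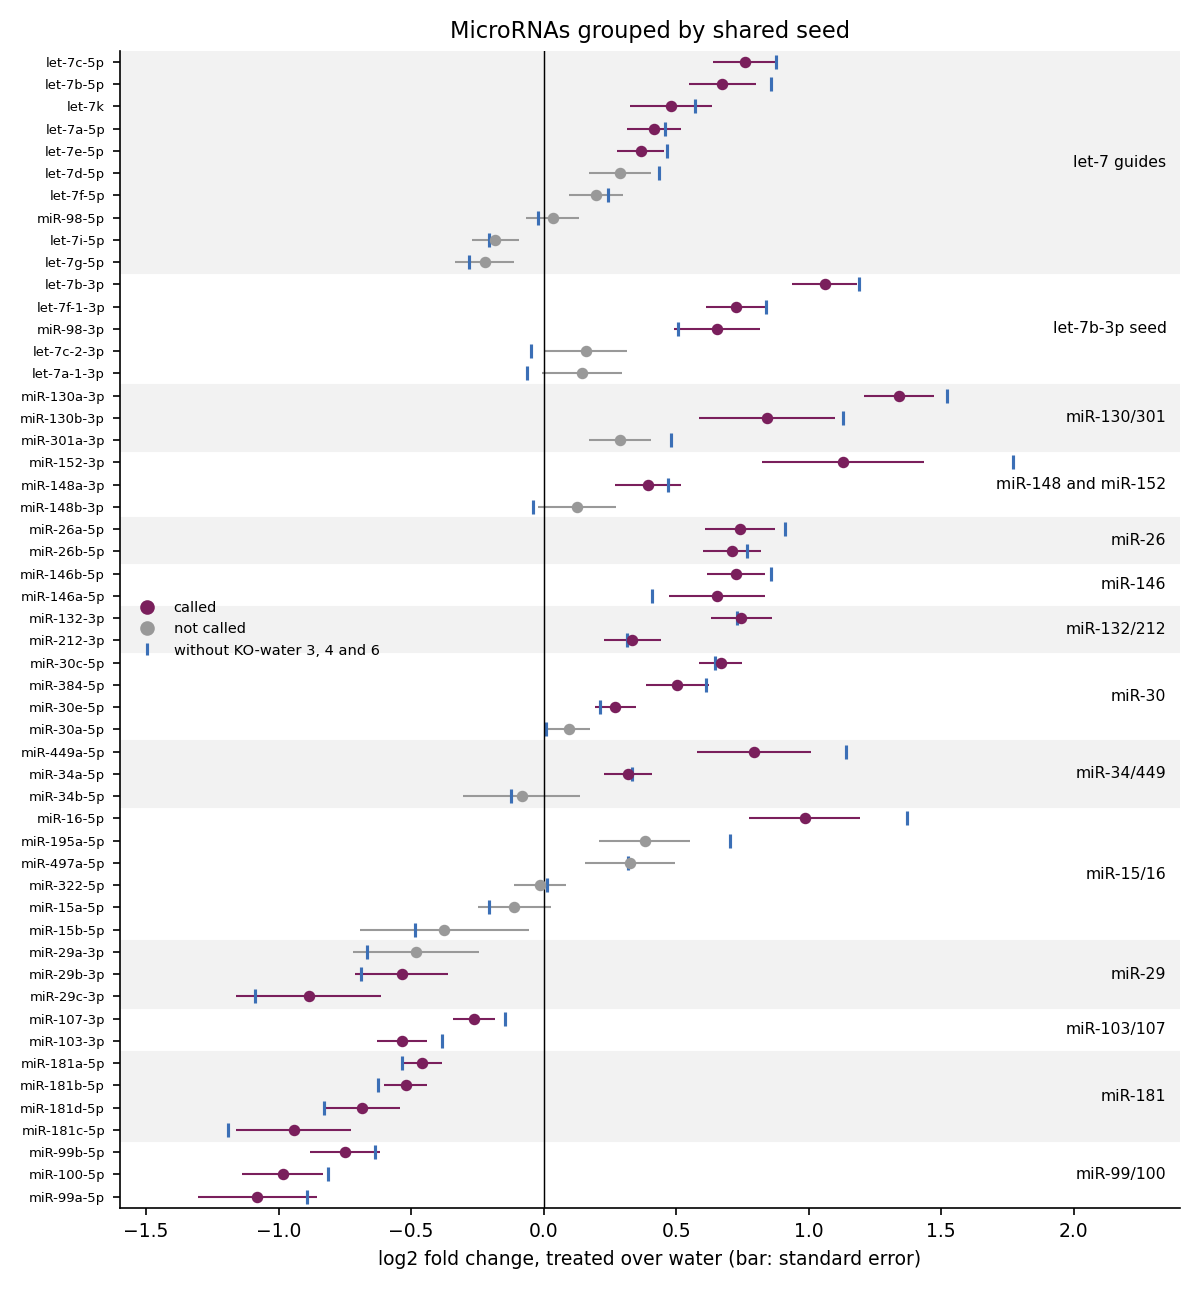
Log2 fold change of treated over water (horizontal axis, bar for SE) for the tested members of 14 seeds, dark where called and grey where not; blue ticks are the values without KO-water 3, 4 and 6. All members of the miR-181 and miR-99/100 seeds lie below 0, and members of the miR-15/16 seed lie between -0.38 and 0.98.

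The 2 arms of each hairpin were set side by side, with no test of the difference between them. Of 162 hairpins with both arms tested, 3 had both arms called up, 9 both down, 6 called in opposite directions, 67 a single arm called and 77 none. The 3 with both up were let-7b, miR-30e and miR-335. Those in opposite directions were miR-17 (5p 0.59, 3p -0.25), miR-28a (5p -0.47, 3p 0.95), miR-199b (5p -1.23, 3p 0.52), miR-382 (5p 0.30, 3p -0.93), miR-501 (5p -1.50, 3p 0.61) and miR-873a (5p 0.90, 3p -0.54). Without KO-water 3, 4 and 6 the calls of miR-17-3p (-0.24, adjusted p 0.0544) and miR-873a-3p (-0.21, adjusted p 0.276) were lost. With log2 total count as a covariate those of miR-28a-5p (-0.36, adjusted p 0.101), miR-199b-3p (0.49, adjusted p 0.0539) and miR-382-3p (-0.66, adjusted p 0.0887) were lost. Both arms of miR-22, a microRNA of heart and brain, fell by about the same amount (5p -0.98 ± 0.22, 3p -0.90 ± 0.23).

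Sequence composition was described for the called microRNAs with a RefSeq sequence, without a test. The median GC content was 45.5% in the 73 that rose, 52.2% in the 91 that fell and 47.8% over all 457. A 5′ U, the base that Argonaute prefers, was present in 53.4% of those that rose, 23.1% of those that fell and 40.3% of all. The arms were mixed differently in these sets, with 35 from the 5p and 35 from the 3p arm among those that rose, and 33 and 55 among those that fell. Across the 457 microRNAs, which share libraries and are not independent, Spearman's rho between GC content and log2 fold change was -0.04, and 0.07 without KO-water 3, 4 and 6. The mean GC content of counted microRNAs per library spanned 42.0% to 45.0% in treated and 42.7% to 43.7% in the 10 other water libraries, and 44.8% to 45.3% in KO-water 3, 4 and 6.

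Activity-regulated microRNAs were followed as a list of 22, of which 5 rose (22.7%) and 2 fell (9.09%), beside 17.0% and 19.1% of all tested. With KO-water 3, 4 and 6 left out, 10 rose and 7 fell, beside 30.8% and 29.1% of all tested. Those that rose were miR-132-3p, miR-212-3p, miR-129-5p (0.67), miR-146a-5p and miR-184-3p (0.80), and miR-181c-5p and miR-485-5p (-0.48) fell. MiR-132-3p, which promotes dendritic growth, lay at 2732, 4134 and 6428 CPM in treated and at 1960, 2397 and 3385 CPM in water libraries, a log2 fold change of 0.74 ± 0.12 (adjusted p 7.42e-06). Of its treated libraries 14 of 18 lay above every water library, and the value without KO-water 3, 4 and 6 was 0.73. MiR-212-3p, from the same transcript, was at 0.33 ± 0.11 (adjusted p 0.015), with 8 of 18 treated libraries above every water library. Its level was 0.615 higher on the log2 scale after exercise than after corticosterone, and its corticosterone means, given below, lay close to those of water. The call was lost in 5 of 20 other alternative fits, among them those within either code letter.

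Of 11 tested microRNAs with reported action on serotonin transporter mRNA, 3 rose (27.3%) and 1 fell (9.09%), beside 17.0% and 19.1% of all tested. MiR-16-5p lay at 7955, 13160 and 25890 CPM in treated and at 4685, 5835 and 18870 CPM in water libraries, with a log2 fold change of 0.98 ± 0.21 (adjusted p 0.000469). Its 3 highest water libraries were KO-water 3, 4 and 6, and without them the value was 1.37 and all treated libraries lay above all water libraries. Of the other 5 tested members of its seed none was called: miR-195a-5p was at 0.38 (adjusted p 0.0808), and at 0.70 (adjusted p 4.16e-05) without those libraries. MiR-135a-5p (0.71 ± 0.16) and miR-135b-5p (0.56) also rose, and miR-24-3p fell by 0.40 ± 0.07.

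Of 10 microRNAs reported to target the glucocorticoid receptor, 3 rose (miR-26b-5p, miR-130b-3p and miR-142a-3p) and 2 fell (miR-101a-3p at -0.41 and miR-433-3p at -0.55). MiR-124-3p, the most abundant of them, was at -0.02 and was not called. Of 26 neuron-enriched microRNAs 6 rose and 6 fell (23.1% each way), near the 17.0% and 19.1% of all tested. The counts were 13 and 6 without KO-water 3, 4 and 6, where 30.8% of all tested rose and 29.1% fell. MiR-128-3p, an abundant neuronal microRNA, was at -0.44 ± 0.16 (adjusted p 0.0251), and its call was lost without KO-water 1 or without KO-water 5 (highest adjusted p 0.0729). The call was also lost without the filter on low counts (adjusted p 0.0544), with contrasts of the 4 treated groups weighted equally (0.0509), within either code letter, and with log2 total count as a covariate, where the value was -0.24 (adjusted p 0.304). MiR-9-5p (0.13) and miR-138-5p (0.11) were not called.

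Microglial and immune microRNAs had a median log2 fold change of 0.55 beside 0.01 for all tested. In that list 4 of 10 rose and 1 fell, beside 17.0% and 19.1% of all tested. MiR-142a-3p, restricted to blood-derived cells and microglia, lay at 96.9, 126 and 159 CPM in treated and at 50.7, 80.8 and 103.5 CPM in water libraries (0.62 ± 0.09, adjusted p 5.06e-06), with 16 of 18 treated libraries above every water library. MiR-146a-5p, miR-146b-5p and miR-155-5p (0.52) rose, and miR-21a-5p was at -0.23 and called lower. Without the filter on low counts the calls of miR-155-5p (adjusted p 0.098) and miR-21a-5p (0.168) were lost. Of the 10, 8 rose and 1 fell without KO-water 3, 4 and 6, where 30.8% of all tested rose and 29.1% fell. The list held 0.72% to 2.57% of counts in treated and 0.705% to 2.23% in water libraries, and none of its tested members was at 0. MiR-150-5p (0.57, adjusted p 0.0584) and miR-342-3p (0.62, adjusted p 0.12) were not called, and without KO-water 3, 4 and 6 they were at 1.03 and 1.36 and both called. Also not called were miR-223-3p (0.52), miR-142a-5p (0.18) and miR-342-5p (-0.26). Without those libraries miR-223-3p (1.13) and miR-142a-5p (0.53) were called and miR-342-5p (-0.03) was not. Of 8 oligodendrocyte microRNAs 1 rose and 2 fell, the largest fall being that of miR-338-3p (-0.89). Of 11 vessel microRNAs 2 rose (18.2%) and 0 fell, and miR-126b-5p was among those that rose. Of all tested in the same fit, 17.0% rose and 19.1% fell. In the fit without KO-water 3, 4 and 6, 3 oligodendrocyte microRNAs rose and 3 fell, and 4 vessel microRNAs rose and 0 fell.

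WT and KO share no library and were each fitted alone. In WT 243 of 548 (44.3%) were called, 138 higher (25.2%) and 105 lower (19.2%), and in KO 39 of 523 (7.46%), 28 higher (5.35%) and 11 lower (2.1%). Called in the same direction in both were 28 (21 rose, 7 fell), which is 11.5% of the WT and 71.8% of the KO calls, and 0 were called in opposite directions. They include miR-130a-3p (WT 1.45, KO 1.26), miR-3059-5p (1.44, 2.06), miR-132-3p (0.82, 0.72), let-7b-3p (1.15, 1.03) and miR-93-3p (-0.79, -1.04).

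The KO count rested on KO-water 3, 4 and 6. Without them 155 of 554 (28.0%) were called, 81 higher (14.6%) and 74 lower (13.4%), of which 128 were also called in WT in the same direction, 52.7% of the WT and 82.6% of these KO calls. Against those 3 libraries alone 193 of 547 (35.3%) were called, 101 higher (18.5%) and 92 lower (16.8%), 30 in the same and 60 in the opposite direction to WT. The product of genotype and treatment was called for 0 of 569 (0.0%) by edgeR, with 121 at an unadjusted p below 0.05, and DESeq2 called 54. The lowest adjusted p was 0.0978, shared by miR-218-5p (-1.40), miR-342-3p (-1.76), miR-192-5p (-1.51) and miR-146a-5p (1.11) among others, where a negative value is a lower change in KO than in WT. Leaving out KO-water 1, 2 or 5 gave 77, 56 and 87 calls for this product, and leaving out KO-water 3, 4 and 6 together gave 0 calls, with 14 at an unadjusted p below 0.05.

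**Figure D5:**
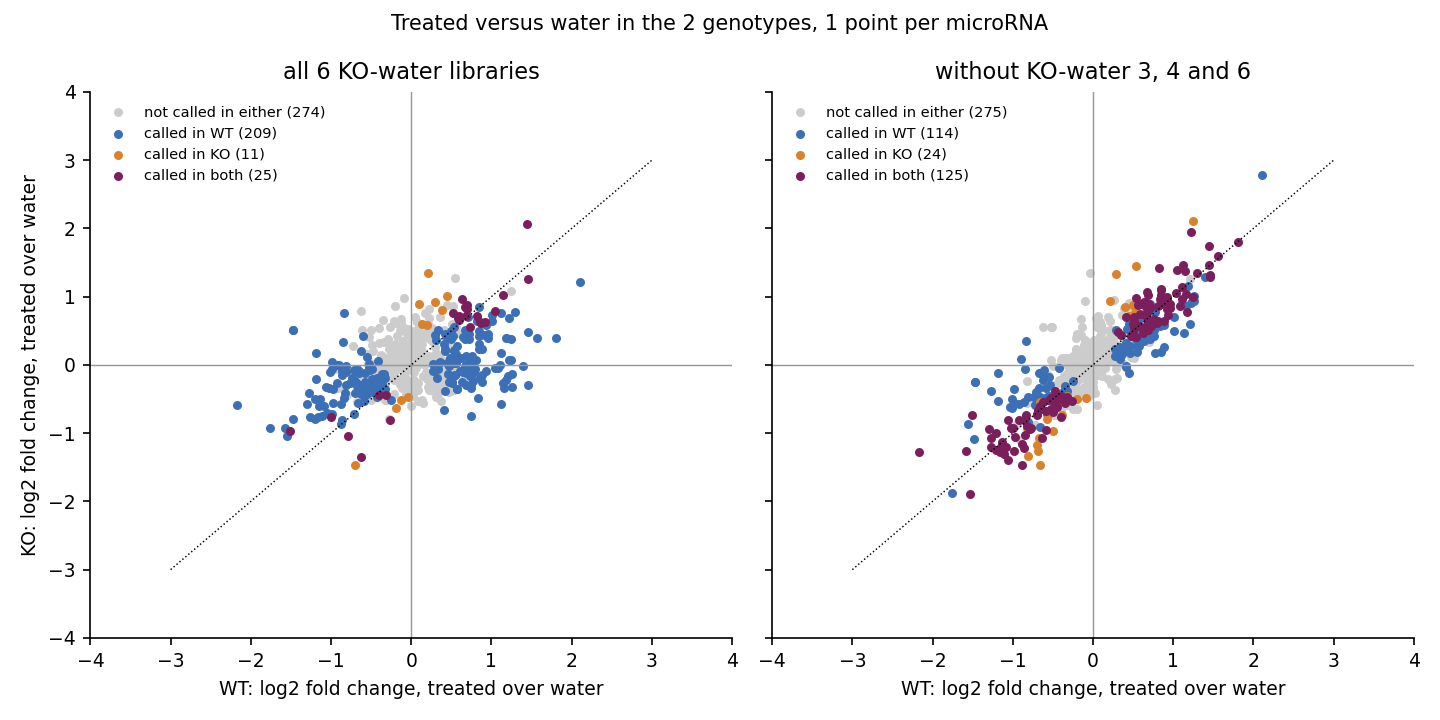
Log2 fold change of treated over water in WT (horizontal axis) and KO (vertical axis), 1 point per microRNA, with all 6 KO-water libraries on the left and without KO-water 3, 4 and 6 on the right; the dotted line marks equal values, and the 3 microRNAs near 0 in water lie beyond the axes. The number called in both genotypes, those 3 included, is 28 on the left and 128 on the right.

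Few differences between the 2 interventions passed the test. Within the 18 treated libraries 1 of 521 (0.192%) was called between exercise and corticosterone, with 29 at an unadjusted p below 0.05: miR-212-3p was higher after exercise by 0.61 ± 0.09 (adjusted p 0.00155). Without the filter on low counts it was at 0.58 and the call was lost (adjusted p 0.0917), as it was within code letter G (0.76, adjusted p 0.282) and within H (0.53, adjusted p 0.86). Its mean was 2158 ± 188 CPM in WT-exercise and 1546 ± 211 in KO-exercise, beside 1371 ± 161 in WT-corticosterone, 1101 ± 23.9 in KO-corticosterone, 1309 ± 166 in WT-water and 1195 ± 208 in KO-water (SD). MiR-132-3p had a difference of 0.50 in the same direction and was not called (adjusted p 0.113). Also not called were miR-204-5p (-1.09), a microRNA of the choroid plexus, and miR-1298-5p (-1.96), intronic to Htr2c, a serotonin receptor gene. A microRNA that does not pass this test has not been shown to respond alike.

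Against water, exercise gave 153 calls of 559 (27.4%), 86 higher (15.4%) and 67 lower, and corticosterone 141 (25.2%), 73 higher (13.1%) and 68 lower (12.2%). These comparisons share the 13 water libraries. MiR-130a-3p was at 1.27 after exercise and 1.47 after corticosterone, miR-16-5p at 1.04 and 0.96, miR-150-3p at -1.29 and -1.30, miR-100-5p at -0.96 and -0.94, and miR-132-3p at 0.95 and 0.49.

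Sample codes begin with G or H, and no source says what these letters stand for. G holds 11 treated and 9 water libraries, and H 7 and 4. Within G alone 82 of 528 (15.5%) were called, 44 higher (8.33%) and 38 lower (7.2%). Within H alone 79 of 558 (14.2%) were called, 37 higher (6.63%) and 42 lower (7.53%). These sets share no library: 45 were called in the same direction in both, 54.9% of the G and 57.0% of the H calls, and 0 in opposite directions. With the letter as a covariate 182 were called, all of them among the 191. No source used here gives the sequencing pool of each library, so a pool that followed the treatment cannot be told apart from the treatment.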

How the data were processed

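Small RNA of 31 right hippocampi was sequenced on an Ion Torrent S5, per the labels' protocols. Values are read counts, deposited by the authors in 5 tables that cover 1966 mature microRNAs, of which 391 had no count in any library. Tools named, per the submitters' processing notes, are limma 3.54.1, featureCounts, Subread, BWA and cutadapt 2.3, and the build is GRCm38 (mm10). Their roles and order are not given. Columns were matched to samples by the code in the labels, repeated columns held identical counts, and other columns of per-sample values numbered 0. The labels call the samples biological replicates.

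Each fit used edgeR 4.0.16 in R 4.3.3 on the deposited counts: genes kept by filterByExpr, TMM factors, dispersions by estimateDisp, a robust glmQLFit and glmQLFTest (the quasi-likelihood test), with Benjamini-Hochberg adjustment over all microRNAs tested and a call at an adjusted p below 0.05. SE is the log2 fold change divided by the root of F. CPM are counts per 1000000 of TMM-scaled library size over all 31 libraries. On simulated counts with 525 microRNAs tested in the treated versus water fit, 67% of 100 changes of 0.5 and 96.9% of 96 changes of 1 on the log2 scale were recovered, and 3.61% of calls were false. The simulated counts were independent between microRNAs and held no variation shared within a group and no separate KO-water libraries. These shares check the fit and may not carry over to the real libraries. Alternatives covered DESeq2 1.42.0, limma-voom (limma 3.58.1), scaling, filters, code letter, depth, blocks and left-out libraries. Host genes are from GENCODE vM21, and sequences and clusters (loci within 10 kb) from RefSeq GRCm38.p6. Permutation tests used SciPy 1.17.1.

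MicroRNAs were named by rule: of those called, 12 in each direction by size of log2 fold change, all that did not overlap between arms, of each of 21 lists the 2 most abundant and the 2 called with the smallest p, those called between interventions or genotypes, a fixed set, other arms of their hairpins and the 5 most abundant. Members of lists, seeds and hairpins are named beyond it as part of their counts. The members and lists were chosen with earlier results of these data known.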

Additional observations from a re-analysis of the deposited data

Results flagged for a closer look

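Within groups of 4 to 10 libraries, a library was singled out where its gap to the next, as a share of the group's range, passed Dixon's critical value. This was asked 75 times, each time of a microRNA in a group, and met 6 times. For continuous values chance alone gives about 1 in 20. In WT-water 1, miR-150-3p was at 59.1 CPM (other WT-water libraries 31.3 to 38.2) and miR-132-3p at 3380 CPM (others 2300 to 2690). In KO-water 5, miR-212-3p was at 1590 CPM (others 982 to 1190). The other 3 are libraries with counts where the rest of their group had 0: miR-126b-5p at 0.444 CPM in WT-water 4 and at 0.528 CPM in KO-water 3, and miR-196b-5p at 0.41 CPM in KO-water 1. In such a group any count passes, so the share of 1 in 20 does not apply to these 3.

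MiR-212-3p differed between the interventions under the same contrast, at 0.615 higher on the log2 scale after exercise than after corticosterone, by the edgeR quasi-likelihood test over the 18 treated libraries (adjusted p 0.00155). Without the filter on low counts the value was 0.58 and the call was lost (adjusted p 0.0917).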

How the results depend on the processing

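For treated versus water, calls numbered 82 for code letter G, 79 for H and 325 without KO-water 3, 4 and 6, and each fit without 1 library gave a count within 1.5 times of 191 (at most 236). Alternatives chosen after seeing the data gave 316 without KO-water 3, 4 and 6 and KO-exercise 4, and, without KO-water 3, 4 and 6, 298 for letter H and 358 with the first component of within-group residuals as a covariate. For the product of genotype and treatment, DESeq2 gave 54, that component 197, and left-out libraries 0 to 87 (2 without WT-exercise 1). Exercise against corticosterone gave 0 without a filter on low counts, 8 with DESeq2, 0 for G, 0 for H, 4 with the component and 1 to 7 without 1 library. Exercise against water gave 95 without the filter, 282 without KO-water 3, 4 and 6, 37 for G, 26 for H, 249 with the component, 265 also without KO-exercise 4, and 120 to 177 without 1 library. Corticosterone against water gave 267, 43, 12, 242 and 261 under the same changes except the filter, and 106 to 181. WT alone gave 78 for G and 209 to 289 without 1 library. KO alone gave 16 without the filter, 60 with DESeq2, 155 without KO-water 3, 4 and 6, 24 with the letter as covariate, 3 for G, 2 for H, 152 with the component, 127 also without KO-exercise 4, 193 with KO-water 3, 4 and 6 as the only water libraries, and 24 to 35 without 1 library (25 without KO-exercise 5, 24 without KO-corticosterone 1). Letter subsets hold fewer libraries, and the cause of the other shifts was not tested.

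With the replicate number as a block, treated versus water gave 211 calls, 186 of them among the 191. The numbers do not pair the samples: correlations of same-numbered deviations spanned -0.603 to 0.723 (median -0.03, 63 pairs), so the block is no paired test. Signs turned for several microRNAs not called in the main comparison. For letter H without KO-water 3, 4 and 6 these included miR-144-3p (-0.72) and miR-9-3p (-0.46), and without those libraries with the component miR-9-3p (-0.19). With log2 total count as a covariate they included miR-191-5p (-0.08) and miR-192-5p (-0.28). The cause was not tested. Of 58 named microRNAs that were called, 53 stayed called in every fit without 1 library, the exceptions being miR-183-5p (16 of 31 fits), miR-17-3p (15), miR-3084-5p (4), miR-128-3p (2) and miR-182-5p (1). Depth limits low microRNAs: 1 count in the smallest library is about 1 CPM. In total counts the arms differed by -856002 without KO-water 3, 4 and 6 (p = 0.0015, permutation test).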

Other observations

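The imprinted Dlk1-Dio3 locus on chromosome 12 holds large microRNA clusters expressed from the maternal allele in neurons. Of its miR-379 to miR-410 cluster (chr12:109709065-109747949), 7 of 57 tested members rose (12.3%) and 11 fell (19.3%), with a median log2 fold change of -0.07, beside 17.0% and 19.1% of all tested. These counts were 13 and 25 without KO-water 3, 4 and 6, where 30.8% of all tested rose and 29.1% fell. Of the neighbouring miR-127 and miR-433 cluster (chr12:109563710-109595387), 0 of 20 rose and 5 fell, with a median of -0.29, and without KO-water 3, 4 and 6 these counts were 2 and 11. Falls there included both arms of miR-770 (5p -0.57, 3p -0.56) and miR-433-3p (-0.55). On the X chromosome (chrX:7237695-7248440), 1 of 7 tested members of the miR-500, miR-501, miR-362, miR-188 and miR-532 cluster rose and 4 fell. In the cluster of miR-181a-1 and miR-181b-1 (chr1:137966468-137966710) all 4 tested strands fell, and in that of let-7c-2 and let-7b (chr15:85706616-85707400) 3 of 4 rose. MicroRNAs with 2 genomic copies are counted in the cluster of each.

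Lists of microRNAs known from other tissues and cells were counted as well. Of 4 tested muscle microRNAs 0 were called, miR-1a-3p being at 0.08 and miR-133a-3p at -0.02. Among 8 microRNAs of choroid plexus and ciliated cells 1 rose (miR-449a-5p, 0.79 ± 0.22), and miR-204-5p, the most abundant, was at -0.05 with a range of 4356 to 25490 CPM in treated and 4845 to 20570 CPM in water libraries. Of 8 tested Htr2c intronic microRNAs 0 were called, and miR-1298-5p spanned 15.8 to 430 CPM in treated and 7.16 to 1456 CPM in water libraries. Of the liver list 3 of 4 rose (beside 17.0% of all tested): miR-122b-3p, miR-122-5p and miR-194-5p, and without KO-water 3, 4 and 6 all 4 did. MiR-122b-3p had passed the filter on low counts only through the treated libraries, so its count here is no separate support.

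The remaining lists were families and clusters. Of 7 tested miR-34 family members 2 rose (miR-34a-5p, 0.32, and miR-449a-5p) and 0 fell, of 7 in the miR-130 and miR-301 family 3 rose and 0 fell, and of 4 in the miR-148 and miR-152 family 2 rose and 0 fell. Of 12 tested in miR-17/92 and its paralogous clusters 2 rose and 3 fell, and among 16 tested miR-30 and miR-29 members 6 were higher and 3 lower. Guide strands of miR-98 and let-7 gave 4 rises and 0 falls over 9 tested. The miR-183 cluster and miR-200 family together gave 2 rises and 0 falls over 6, and of 2 tested Hox-encoded microRNAs 1 rose (miR-196b-5p). MiR-196b-5p had passed the filter on low counts only through the treated libraries, so its count here is no separate support. Over all 530 tested, 17.0% rose and 19.1% fell.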
